A study of Mus musculus with 6 samples.

Results

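Solute carriers (SLC) are the largest group of membrane transport proteins. Each carries a class of small molecules, such as an amino acid, a sugar, a metal ion or a nucleoside, across the plasma membrane or the membrane of an organelle. Some run downhill, some use an ion gradient, and the SLC25 family moves metabolites across the inner mitochondrial membrane. Connective tissue precursors depend on several of them: sulfate and phosphate carriers serve cartilage matrix and mineral, zinc carriers serve the secretory pathway that makes collagen, and amino acid carriers supply matrix synthesis.

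The genes described here are those whose symbol has the form Slc, a family number, the letter a and a member number, with at least 60 raw counts in all over 6 libraries. Slc2a1 and Slc16a3 were left out by the rule. Of 13158 genes in the table, 191 others had such a symbol, of which 122 reached 60 counts and 69 did not. Members were chosen by symbol and selected on the total count alone, so the level of a gene bears on its choice. A gene present mainly in one region can reach the minimum through that region alone. Just inside the minimum were Slc7a2 (61 counts), Slc14a2 (64), Slc24a5 (65), Slc16a6 (66) and Slc7a5 (69). Just outside were Slc25a42 (58), Slc25a47 (56), Slc22a15 (54) and Slc41a3 (53). Of the 122 members, 121 passed the filter on low counts and were tested, and Slc7a2 was not.

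The libraries were made from wild-type C57BL/6 mouse forelimbs at embryonic day 13.5, with 3 distal and 3 proximal libraries. In both regions the sorted cells carried Sox9-CreERT2, a Rosa26-tdTomato reporter and ScxGFP, so they had expressed the cartilage factor Sox9 under the inducible Cre and were positive for the tendon factor Scleraxis (Scx). The labels give no treatment, and how the Cre was induced is not given in the sources used here. Whether the libraries of a region come from different embryos or litters is not stated, and p-values cover only their spread, part of which may be technical. RNA was measured by bulk MARS-seq, which counts the 3' ends of transcripts, so levels are relative counts (CPM, the count scaled to a common library total, adjusted by TMM) and not divided by transcript length. In bulk RNA, fewer cells of a type and less RNA per cell cannot be told apart.

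Library totals were 1585631 to 2143795 counts in distal and 1709551 to 2623788 in proximal libraries, and a count of 0 allows up to 3 counts, or 1.07 to 1.99 CPM. Sox9 and Scx, the genes behind the sort, were present in every library and higher in distal ones. Of 6 tested tendon markers only Scx was called by edgeR's adjusted test, and their median log2 fold change, distal over proximal, was -0.14. Fmod and Mkx were above 0 (1.38 and 0.48), and Tnmd, Thbs4 and Tnc below (-1.89, -1.14 and -0.76). Skeletal muscle markers stood apart by region: 5 of 5 tested were higher in proximal libraries in edgeR's test, and the 9 deposited markers summed to 37.0 to 52.0 CPM in distal and 206 to 588 CPM in proximal libraries. Endothelial, myeloid and epidermal markers summed to at most 10.5 CPM in any distal and 15.3 CPM in any proximal library, with Csf1r at 0 in all distal libraries. The myeloid sums did not overlap by region, at 1.88 to 4.42 CPM in distal and 6.42 to 15.3 CPM in proximal libraries. Schwann cell and neuron markers summed to 34.8 to 58.6 CPM in distal and 30.7 to 43.1 CPM in proximal libraries, and the 2 tested ones were called in opposite directions. The distal mean of Stmn2 was 35.5 CPM and its proximal mean 11.1 CPM, and the distal mean of Nefl was 0.716 CPM and its proximal mean 15.4 CPM. Erythroid markers summed to 1.25 to 11.8 CPM in distal and 1.09 to 79.6 CPM in proximal libraries. The 45S pre-ribosomal RNA Rn45s held 4.63% and 6.81% of counts in distal libraries 1 and 2 and 11.7% in proximal library 1. It held 2.98% in distal library 3 and 2.94% and 2.2% in proximal libraries 2 and 3. Across the 9512 tested genes, which are not independent replicates, deviations from the region means correlated positively between distal and proximal libraries on the same side of 4% Rn45s (0.35 and 0.36 above it, 0.29 and 0.48 below).

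SLC transcripts were a small share of the RNA. The 122 members together held 0.562% to 0.598% of counts in distal and 0.579% to 0.667% in proximal libraries. Levels were very uneven: 9 members averaged 100 CPM or more, 22 averaged 50 CPM or more, and 22 averaged under 10 CPM. Slc25a4, Slc25a3 and Slc25a5 alone took 34.1% to 39.1% of the members' counts in distal and 35.3% to 43.7% in proximal libraries. Of the 9 above 100 CPM, 6 were SLC25 carriers. The others were the glutamine and alanine transporter Slc38a2, the zinc transporter Slc39a7 of the endoplasmic reticulum, and Slc35a4, a member of the nucleotide sugar transporter family.

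The comparison of regions asks whether precursors from different levels of the limb carry different sets of these transporters. For nearly all members no difference was called. Slc14a2, a urea transporter, was the 1 member of 121 (0.826%) higher in distal libraries at an edgeR adjusted p under 0.05, where 1.11% of all 9512 tested genes were. Slc14a2 reached 60 counts, and the filter, through the distal libraries, which hold 57 of its 64 counts, so the count of called members is given as a description. None was higher in proximal libraries, where 2.27% of tested genes were, and in either direction 3.39% of tested genes were called. The count in proximal libraries was 1 with DESeq2, and at an unadjusted edgeR p under 0.05 it was 6 members (4.96%, with 6.02% of tested genes). At that unadjusted threshold 4 members (3.31%, with 4.81% of tested genes) were higher in distal libraries. The 3 values of one region lay wholly above the 3 of the other in 7 members for distal (5.79%, with 7.53% of tested genes) and 13 members for proximal libraries (10.7%, with 8.67%).

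Most differences were small in the members and in all tested genes alike. The median size of the log2 fold change, regardless of sign, was 0.22 in members and 0.20 in all tested genes. The members' log2 fold changes, distal over proximal, had a median of -0.04 with a middle 50% of -0.29 to 0.11, and those of all tested genes a median of 0.01 with a middle 50% of -0.19 to 0.20. Fold changes were above 0 in 53 members (43.8%), with 51.2% of tested genes. Only Slc14a2 changed by 1 or more on the log2 scale (0.826%, with 5.01% of tested genes), and 17 members differed by 0.5 or more (14%, with 16.2%). Slc2a1 and Slc16a3, which the rule leaves out, had log2 fold changes of 1.18 and 1.52, neither past the threshold (edgeR adjusted p = 0.288 and 0.0859).

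How far a difference is bounded depended on the level. The 95% interval of the log2 fold change lay within 1 in either direction for 77 members (63.6%, with 68.1% of tested genes). It did so for 21 of the 22 members at 50 CPM or more and for 56 of 99 tested members below that. The median SE was 0.18 in the higher group and 0.31 in the lower one. The median coefficient of variation at 50 CPM or more was 10.8% over distal and 13.6% over proximal libraries, and below 50 CPM it was 24.5% and 20.6%. For the other 43 tested members below 50 CPM, these libraries do not bound the difference to a log2 value of 1.

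**Figure D1:**
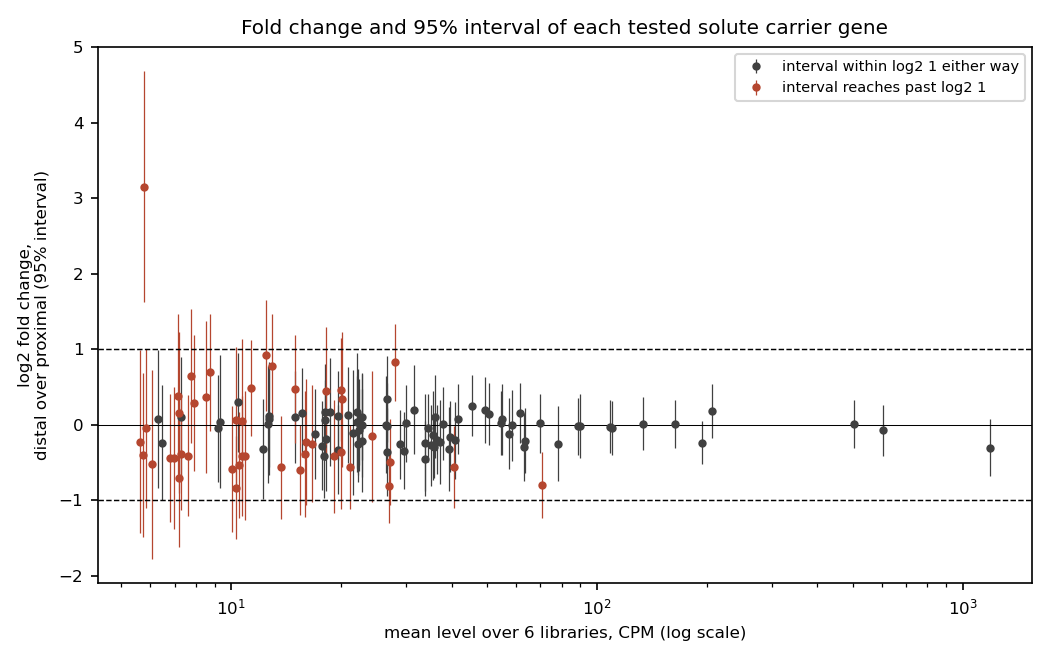
Log2 fold change, distal over proximal, of each of the 121 tested members (y axis) against its mean level over 6 libraries in CPM (x axis, log scale). Bars are 95% intervals and dashed lines mark a log2 change of 1 in either direction; the intervals narrow to the right, and 77 members, in grey, have intervals within the lines.

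The urea transporters Slc14a1 and Slc14a2 are neighbours on chromosome 18, with 4029 bases between the annotated spans (GRCm38, the mm10 build). Slc14a2 (78146148 to 78596942, minus strand), best known for concentrating urea in the kidney, had 6.38, 7.52 and 17.7 CPM in distal libraries 1 to 3, against 1.33, 0 and 1.78 CPM in proximal libraries 1 to 3. Every distal library was above every proximal one, and distal library 3 was more than the other distal libraries together. The raw counts were 13, 12 and 32 in distal libraries 1 to 3 and 2, 0 and 5 in proximal libraries 1 to 3. The log2 fold change was 3.15 (SE 0.69, 95% interval 1.63 to 4.68), with an edgeR adjusted p of 0.0331. Slc14a2 reached the count minimum and the filter through the distal libraries, where it is high, so its values are given as a description. Without 1 library the log2 fold change was 2.56 (without distal library 3) to 3.97 (without proximal library 3). The difference in mean log2 of CPM plus 1 was 1.77 among libraries above 4% Rn45s and 3.48 among those below. On that scale the difference over all libraries was 2.50. Each side rests on 1 library of a region, proximal library 1 above 4% and distal library 3 below. The call was lost without any one library except proximal library 1 (adjusted p 0.0471 without that library, 0.0538 to 0.110 without any other). A filter of 10 CPM in 3 libraries removed the gene from the test. Slc14a1 (78100091 to 78142119, minus strand), the urea transporter of red cells and vessels, was more abundant, with 64.3, 68.9 and 61.9 CPM in distal libraries 1 to 3, against 55.7, 53.1 and 65.6 CPM in proximal libraries 1 to 3. The regions overlapped, and the log2 fold change was 0.16 (SE 0.18, 95% interval -0.24 to 0.55).

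The other transporters of organic ions and small solutes had no called member. With the urea transporters the class held 8 genes, of which 6 had intervals within 1. Slc22a17, a receptor for lipocalin 2, had 55.4, 47.0 and 66.8 CPM in distal libraries and 66.3, 81.0 and 61.0 CPM in the proximal ones, with a log2 fold change of -0.29 (SE 0.20, 95% interval -0.74 to 0.15). Slc6a8, the creatine transporter, had 44.2 to 69.1 CPM in the distal libraries and 48.4 to 58.6 CPM in the proximal ones, and the ranges overlapped fully. Slc22a23, an organic ion transporter family member, had 5.89, 8.15 and 8.29 CPM in distal libraries 1 to 3, against 11.9, 12 and 15.3 CPM in proximal libraries 1 to 3. The regions did not overlap and the log2 fold change was -0.84 (SE 0.31, 95% interval -1.52 to -0.15), but the edgeR adjusted p was 0.274. Slc10a7, whose loss in humans gives a skeletal dysplasia, averaged 22.3 ± 6.99 CPM in the distal libraries and 21.8 ± 2.42 CPM in the proximal ones (SD, n = 3 each), and its interval of -0.58 to 0.65 stayed within 1.

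Sugar transporters had the highest class median, 0.16, with 6 of 8 fold changes above 0. The neuronal-type glucose transporter Slc2a3 (GLUT3; chromosome 6, 122727809 to 122801640) had 35.8, 30.7 and 41.4 CPM in distal libraries 1 to 3, against 16.6, 20.8 and 22.8 CPM in proximal libraries 1 to 3. All distal libraries were above all proximal ones, and the log2 fold change was 0.83 (SE 0.23, 95% interval 0.32 to 1.34), with an edgeR adjusted p of 0.100. It passed under 1 of 17 alternatives, a fit with a term for libraries above 4% Rn45s (adjusted p 0.0110), which was chosen after seeing the data. Its difference in mean log2 of CPM plus 1 was 0.96 among the 3 libraries above 4% Rn45s and 0.90 among the 3 below. Each of these rests on 1 library of a region, proximal library 1 above 4% and distal library 3 below. Slc2a8, an intracellular glucose transporter, had a log2 fold change of 0.04 (SE 0.26, 95% interval -0.53 to 0.61), and the insulin-responsive Slc2a4 of skeletal muscle and fat one of 0.12 (SE 0.27, 95% interval -0.47 to 0.71). The count ratio of Slc2a3 to Slc2a8 was 1.29 to 2.03 in distal and 0.792 to 1.19 in proximal libraries. Slc50a1, a sugar transporter of the SWEET family, had 43.9 to 60.4 CPM in the distal libraries and 43.2 to 50.3 CPM in the proximal ones. Slc37a3, of the sugar phosphate exchanger family, had 48.1, 48.9 and 51.9 CPM in distal libraries 1 to 3, against 39.1, 40.5 and 44.9 CPM in proximal libraries 1 to 3, again without overlap but with a log2 fold change of only 0.25 (SE 0.18, 95% interval -0.15 to 0.65). The inositol transporter Slc5a3 leaned the other way, at 9.32, 15.0 and 8.84 CPM in distal and 19.2, 14.8 and 15.0 CPM in proximal libraries, with an interval of -1.24 to 0.12.

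Slc16a1 (MCT1), a lactate and pyruvate transporter, had 38.8, 28.8 and 21.5 CPM in distal libraries 1 to 3, against 23.9, 20.8 and 25.7 CPM in proximal libraries 1 to 3. The regions overlapped, and the log2 fold change was 0.34 (SE 0.26, 95% interval -0.23 to 0.91).

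No transporter of nucleosides or nucleotide sugars was called. Slc29a1 (ENT1; chromosome 17, 45585200 to 45599606), the main equilibrative nucleoside transporter of the plasma membrane, had 23.1, 18.2 and 17.1 CPM in distal libraries 1 to 3, against 35.1, 32.8 and 35.3 CPM in proximal libraries 1 to 3. The proximal libraries lay close together and all above the distal ones. The log2 fold change was -0.82 (SE 0.22, 95% interval -1.30 to -0.33) and the edgeR adjusted p 0.0868, under 0.05 only with the Rn45s term (0.0266). The difference in mean log2 of CPM plus 1 was -0.75 among libraries above 4% Rn45s and -0.95 among those below. Each of these rests on 1 library of a region, proximal library 1 above 4% and distal library 3 below. Slc29a3, the lysosomal nucleoside transporter, had a log2 fold change of -0.28 (SE 0.27, 95% interval -0.87 to 0.31), and Slc29a2 one of 0.29 (SE 0.30, 95% interval -0.36 to 0.95). Slc29a4, which also carries monoamines, had 8.83, 8.77 and 14.9 CPM in distal libraries 1 to 3, against 5.97, 7.66 and 6.42 CPM in proximal libraries 1 to 3, without overlap, and the log2 fold change was 0.69 (SE 0.35, 95% interval -0.08 to 1.46). Slc35a4 was at 98.6 to 117 CPM in the distal libraries and 94.2 to 118 CPM in the proximal ones, and its interval was -0.38 to 0.33. Slc35a2, which brings UDP-galactose into the Golgi, and Slc35a1, which brings CMP-sialic acid, had log2 fold changes of -0.02 (SE 0.25) and -0.15 (SE 0.39).

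**Figure D2:**
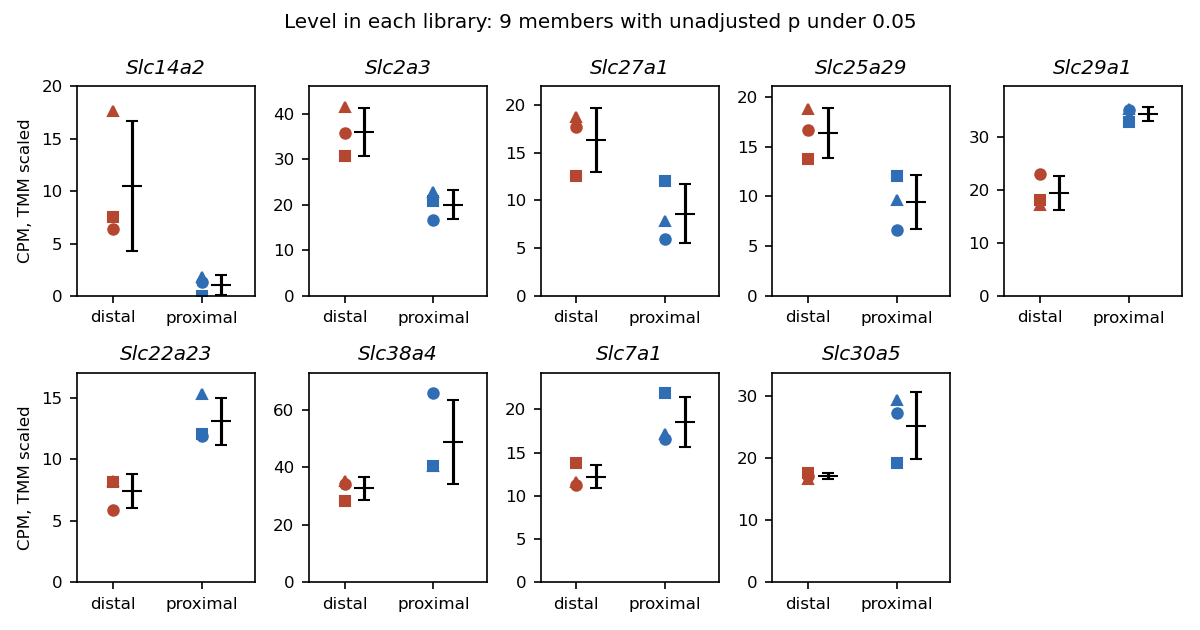
CPM (y axis, from 0, TMM scaled) in each library for 9 of the 10 members with an unadjusted edgeR p under 0.05, distal in red on the left of each panel and proximal in blue. Circles, squares and triangles are libraries 1, 2 and 3, and bars are mean ± SD (n = 3); Slc14a2 is the only one past the adjusted threshold, and in all 9 panels the regions do not overlap.

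The amino acid transporter with the highest level was Slc38a2. Slc38a2, Slc38a1 and Slc38a4 lie in a run on chromosome 15 (96571418 to 97055956, minus strand). Slc38a2 (SNAT2), the sodium-coupled transporter of small neutral amino acids that responds to amino acid shortage, had 213, 225 and 219 CPM in distal libraries 1 to 3, against 151, 199 and 227 CPM in proximal libraries 1 to 3. Proximal library 1 was the lowest and proximal library 3 the highest of all 6, so the regions overlapped, with a log2 fold change of 0.18 (SE 0.16, 95% interval -0.17 to 0.54). Slc38a1 (SNAT1), a glutamine transporter, had 49.1 to 60.2 CPM in the distal libraries and 45.1 to 61.0 CPM in the proximal ones, and the log2 fold change was 0.02 (SE 0.19, 95% interval -0.41 to 0.45). Slc38a4 (SNAT4), an amino acid transporter gene imprinted in the mouse, had 34.3, 28.2 and 35.4 CPM in distal libraries 1 to 3, against 65.7, 40.5 and 40.3 CPM in proximal libraries 1 to 3. All proximal libraries were above all distal ones, and proximal library 1 stood well above the rest. The log2 fold change was -0.56 (SE 0.24, 95% interval -1.10 to -0.02), with an edgeR adjusted p of 0.425, and without proximal library 1 it was -0.31.

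The promoters of Slc38a2 and Slc38a4 are shown because these neighbours differ in level (mean 206 and 40.7 CPM over 6 libraries) and in CG content. Any relation of CG content to level was not tested. Each runs 5′ to 3′ along the gene's strand, from 250 bases before to 50 bases after the start, with every CG in capitals (RefSeq, GRCm38.p6; Slc38a2 chr15:96699679-96699978 and Slc38a4 chr15:97055907-97056206, minus strand).
Slc38a2: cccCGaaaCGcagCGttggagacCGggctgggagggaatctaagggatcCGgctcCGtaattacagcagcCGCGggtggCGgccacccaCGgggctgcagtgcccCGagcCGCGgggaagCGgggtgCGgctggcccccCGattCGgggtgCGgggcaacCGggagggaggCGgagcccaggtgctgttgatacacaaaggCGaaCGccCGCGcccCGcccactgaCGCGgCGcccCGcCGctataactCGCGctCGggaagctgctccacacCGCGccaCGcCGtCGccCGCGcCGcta
Slc38a4: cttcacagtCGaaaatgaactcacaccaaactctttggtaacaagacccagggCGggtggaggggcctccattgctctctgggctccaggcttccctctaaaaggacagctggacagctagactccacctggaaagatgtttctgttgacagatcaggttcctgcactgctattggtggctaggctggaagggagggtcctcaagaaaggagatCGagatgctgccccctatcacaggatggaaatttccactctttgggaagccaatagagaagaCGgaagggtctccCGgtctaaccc
The Slc38a2 window holds 41 CG and the Slc38a4 window 5, a letter pair that reads the same on both strands. Of 7324 tested genes with a promoter in the table, 8.67% hold 41 or more and 2.99% hold 5 or fewer (the start with the most CG was taken where a gene has several). Across the 91 members with an entry the median was 22, and across the tested genes it was 23.

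No other amino acid transporter was called. Slc3a2, the heavy chain that pairs with LAT-type transporters, had 67.7, 70.2 and 76.2 CPM in distal libraries 1 to 3, against 70.3, 117 and 68.1 CPM in proximal libraries 1 to 3, where proximal library 2 was high and the rest overlapped. Without proximal library 2 the log2 fold change was 0.04, against -0.25 with it. Its light chain partner Slc7a5 (LAT1), a carrier of large neutral amino acids, was at a low level, 3.31 to 6.89 CPM in the distal libraries and 1.33 to 8.21 CPM in the proximal ones. Slc1a5 (ASCT2), a glutamine exchanger, had 21.1, 22.6 and 17.1 CPM in distal libraries and 23.9, 23.5 and 25 CPM in the proximal ones, without overlap but with a log2 fold change of only -0.26 (SE 0.23, 95% interval -0.76 to 0.25). The arginine and lysine transporter Slc7a1 (CAT1) also did not overlap, with 11.3, 13.8 and 11.6 CPM in distal libraries 1 to 3, against 16.6, 21.9 and 17.1 CPM in proximal libraries 1 to 3, and the log2 fold change was -0.60 (SE 0.27, 95% interval -1.20 to -0.01), with an edgeR adjusted p of 0.45. In the class of 22, 21 were tested, 12 had intervals within 1, and the log2 fold changes ran from -0.60 to 0.48 with a median of -0.12.

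The mitochondrial SLC25 carriers had the highest summed level of any class, 2889 to 3299 CPM in distal and 3111 to 3917 CPM in proximal libraries, with log2 fold changes of -0.59 to 0.78 and a median of -0.01 over 26 genes. Slc25a4 (ANT1; chromosome 8, 46206797 to 46211284), the ADP/ATP carrier prominent in heart and skeletal muscle, had 1143, 1152 and 884 CPM in distal libraries 1 to 3, against 1537, 1064 and 1319.9 CPM in proximal libraries 1 to 3. The ranges overlapped, and the log2 fold change was -0.30 (SE 0.17, 95% interval -0.68 to 0.07). Slc25a5 (ANT2; chromosome X, 36795651 to 36798807), the form of dividing cells, had 549.5, 488 and 481 CPM in distal libraries 1 to 3, against 579, 496 and 438 CPM in proximal libraries 1 to 3. The values overlapped, and the log2 fold change was 0.01 (SE 0.14, 95% interval -0.31 to 0.32). The count ratio of Slc25a4 to Slc25a5 was 1.84 to 2.36 in distal and 2.14 to 3.02 in proximal libraries, with overlapping ranges. In the annotation 1 pseudogene is named after Slc25a5, and reads it shares with the gene could be split.

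Slc25a3, which brings phosphate into mitochondria, had 619, 587 and 565 CPM in distal libraries 1 to 3, against 757, 545 and 563 CPM in proximal libraries 1 to 3, with proximal library 1 above the others. Its log2 fold change was -0.07 (SE 0.15, 95% interval -0.41 to 0.26), and 0.09 without proximal library 1. The glutathione carrier Slc25a39 had 175, 177 and 181 CPM in distal libraries 1 to 3, against 219.5, 218 and 191 CPM in proximal libraries 1 to 3, without overlap but with a log2 fold change of only -0.24 (SE 0.13, 95% interval -0.53 to 0.05). The oxoglutarate and malate carrier Slc25a11, the citrate carrier Slc25a1 and the NAD carrier Slc25a51 had 95% intervals of the log2 fold change of -0.30 to 0.32, -0.40 to 0.31 and -0.37 to 0.41. The aspartate and glutamate carrier Slc25a12 showed little spread, at 31.4, 32.6 and 32.6 CPM in distal and 39.8, 38.3 and 40.0 CPM in proximal libraries, yet with an edgeR adjusted p of 0.719. The basic amino acid carrier Slc25a29 had 16.7, 13.8 and 18.8 CPM in distal libraries 1 to 3, against 6.63, 12 and 9.63 CPM in proximal libraries 1 to 3, higher in every distal library, with a log2 fold change of 0.78 (SE 0.31, 95% interval 0.10 to 1.46) and an edgeR adjusted p of 0.328. The ornithine carrier Slc25a15 leaned the same way (11.8, 15.0 and 12.7 CPM in distal and 10.6, 8.76 and 8.92 CPM in proximal libraries) with an interval of -0.15 to 1.12.

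**Figure D3:**
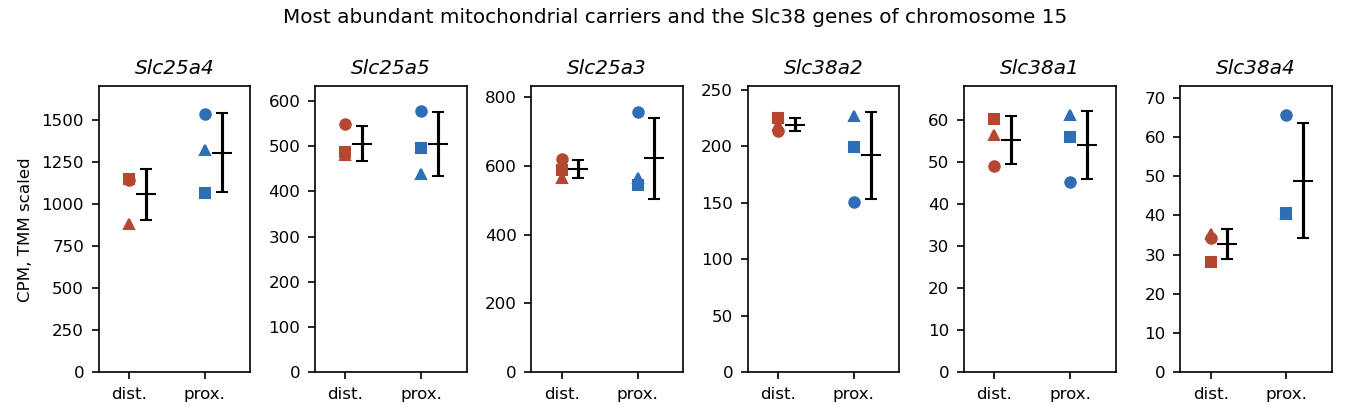
CPM (y axis, from 0, TMM scaled) in each library for the 3 most abundant mitochondrial carriers and the 3 SLC38 genes of chromosome 15, distal in red on the left of each panel and proximal in blue. Circles, squares and triangles are libraries 1, 2 and 3, and bars are mean ± SD (n = 3); the regions overlap in all panels but that of Slc38a4.

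Metal transporters numbered 20, none called, with log2 fold changes of -0.56 to 0.65, a median of -0.02 and 14 intervals within 1. Slc39a7 (ZIP7), which releases zinc from the endoplasmic reticulum, had 112 to 154 CPM in the distal libraries and 126 to 141 CPM in the proximal ones, and Slc39a1 (ZIP1), a zinc importer of the plasma membrane, had 80.7 to 96.7 CPM in the distal libraries and 78.5 to 102 CPM in the proximal ones. Their log2 fold changes were 0.01 (SE 0.16, 95% interval -0.34 to 0.37) and -0.02 (SE 0.17, 95% interval -0.40 to 0.36). Slc39a13 (ZIP13), mutated in a human form of Ehlers-Danlos syndrome with skeletal features, had 30.4, 28.2 and 46.4 CPM in distal libraries 1 to 3, against 45.8, 34.5 and 51.0 CPM in proximal libraries 1 to 3, overlapping, with a log2 fold change of -0.33 (SE 0.25, 95% interval -0.88 to 0.23). Slc39a14 (ZIP14), a zinc, iron and manganese importer whose loss slows growth in mice, had 12.7 to 16.9 CPM in the distal libraries and 12 to 16.6 CPM in the proximal ones and a log2 fold change of 0.10 (SE 0.28, 95% interval -0.51 to 0.71). Slc30a5 (ZnT5), which loads zinc into the secretory pathway, had 17.2, 17.5 and 16.6 CPM in distal libraries 1 to 3, against 27.2, 19.2 and 29.3 CPM in proximal libraries 1 to 3. The distal libraries were nearly equal and all below the proximal ones, with a log2 fold change of -0.56 (SE 0.25, 95% interval -1.12 to -0.01) and an edgeR adjusted p of 0.45. Its partner Slc30a6 (ZnT6) scattered widely, at 8.77 to 21.1 CPM in the distal libraries and 12.6 to 21.4 CPM in the proximal ones, and the copper importer Slc31a1 averaged 38 ± 1.83 CPM in the distal libraries and 38 ± 9.19 CPM in the proximal ones (SD, n = 3 each).

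Carriers of sodium, potassium, calcium, protons, chloride and bicarbonate had the lowest class median, -0.24, with log2 fold changes of -0.70 to 0.33, 10 of 14 below 0 and none called. They had the lowest class median of level, 11.7 CPM, and 7 of 14 had intervals within 1. Slc12a4 (KCC1), a potassium and chloride exporter, had 28 to 36.5 CPM in the distal libraries and 27.2 to 45.3 CPM in the proximal ones, with a log2 fold change of -0.27 (SE 0.24, 95% interval -0.81 to 0.26). Slc24a3, a potassium-dependent sodium and calcium exchanger, had 6.38, 7.52 and 2.76 CPM in distal libraries 1 to 3, against 7.96, 7.12 and 11.4 CPM in proximal libraries 1 to 3. This was the smallest p of the class, but the ranges overlapped and the log2 fold change was -0.70 (SE 0.42, 95% interval -1.62 to 0.22), with an edgeR adjusted p of 0.671. Slc12a2 (NKCC1), which imports sodium, potassium and chloride, had 28, 23.2 and 14.9 CPM in distal libraries 1 to 3, against 30.5, 13.7 and 10.3 CPM in proximal libraries 1 to 3. Its values were low in distal library 3 and in proximal libraries 2 and 3, the libraries under 4% Rn45s, and high in the others. Without proximal library 1 and distal library 3, where both distal libraries left are above 4% Rn45s and both proximal ones below, so that region and Rn45s share cannot be told apart, its log2 fold change was 1.12 (edgeR adjusted p = 0.0406), against 0.33 with all libraries (adjusted p = 0.906).

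The phosphate importers Slc20a1 (PIT1) and Slc20a2 (PIT2) supply phosphate to cells, including mineralizing ones. Slc20a1 had 22.6, 26.9 and 19.3 CPM in distal libraries 1 to 3, against 23.9, 15.9 and 11.4 CPM in proximal libraries 1 to 3, and the log2 fold change was 0.46 (SE 0.31, 95% interval -0.22 to 1.15). Slc20a2 had 28, 29.5 and 44.7 CPM in distal libraries 1 to 3, against 26.5, 40.0 and 44.9 CPM in proximal libraries 1 to 3, and the log2 fold change was -0.14 (SE 0.27, 95% interval -0.73 to 0.45). The regions overlapped in both genes. The sulfate transporter Slc26a2, whose loss in humans gives chondrodysplasias, was under the count minimum, with 33 counts over 6 libraries, and so did the iron exporter Slc40a1, with 38.

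The 9 carriers of vitamins, choline and fatty acids had log2 fold changes of -0.39 to 0.92, with a median of -0.07 and none called. Slc27a1 (FATP1), which promotes fatty acid uptake in muscle and fat, had 17.7, 12.5 and 18.8 CPM in distal libraries 1 to 3, against 5.97, 12 and 7.85 CPM in proximal libraries 1 to 3. Every distal library was above every proximal one, the closest being distal library 2 and proximal library 2, and the log2 fold change was 0.92 (SE 0.33, 95% interval 0.18 to 1.66), with an edgeR adjusted p of 0.263. Its relative Slc27a4 (FATP4) had 49.1 to 57.0 CPM in the distal libraries and 44.2 to 54.7 CPM in the proximal ones, with a log2 fold change of 0.14 (SE 0.19, 95% interval -0.27 to 0.56). Slc27a3, of the same family, had 52.0 to 66.7 CPM in the distal libraries and 58.0 to 80.3 CPM in the proximal ones, with a log2 fold change of -0.21 (SE 0.19, 95% interval -0.64 to 0.22). Among vitamin carriers, the folate transporter Slc19a1, the riboflavin transporter Slc52a2 and the vitamin C transporter Slc23a2 had log2 fold changes of -0.07 (SE 0.24), 0.17 (SE 0.36) and 0.07 (SE 0.44), and the regions overlapped in each.

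**Figure D4:**
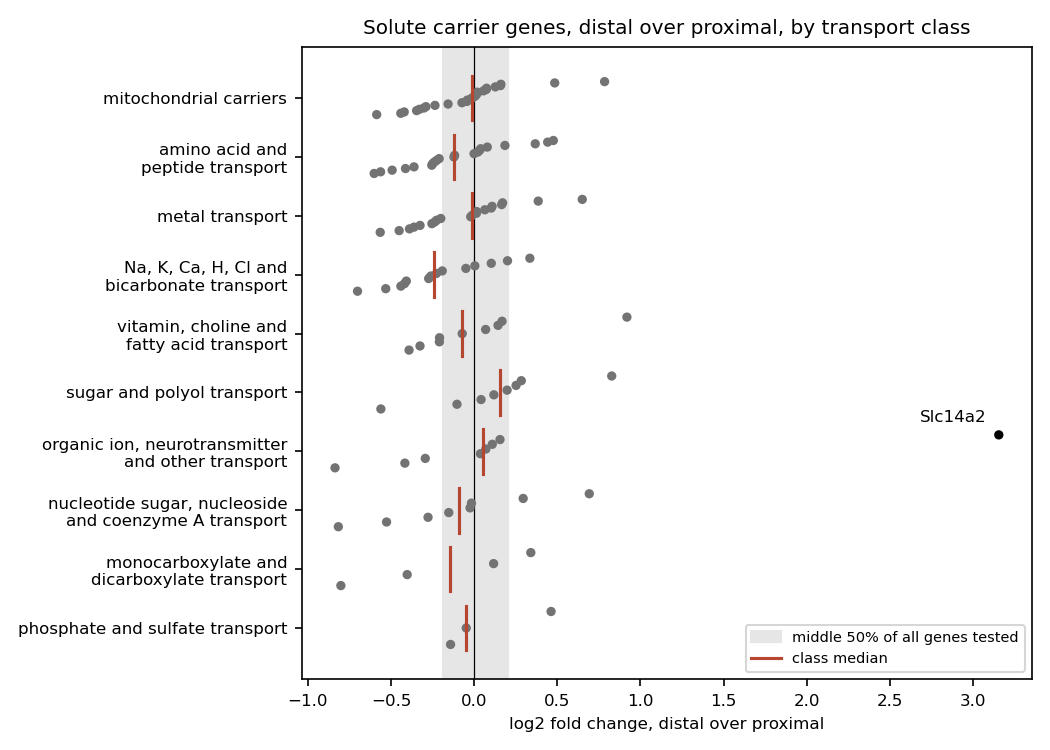
Log2 fold change, distal over proximal (x axis), of the 121 tested members by transport class (rows), 1 point a gene. Red bars are class medians and the grey band is the middle 50% of all 9512 tested genes, -0.19 to 0.20; Slc14a2, in black, is the only called member.

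The proximal-leaning members stood beside a region difference in skeletal muscle marker transcripts, and in the lower myeloid ones. Which cells these transcripts came from was not tested. Muscle marker sums were 37.0 to 52.0 CPM in distal and 206 to 588 CPM in proximal libraries, and all 5 tested markers were higher in proximal libraries. The part of muscle and myeloid markers in the members' values was not tested. The muscle sum was 466, 588 and 206 CPM in proximal libraries 1 to 3, where Slc29a1 had 35.1, 32.8 and 35.3 CPM. Among the proximal libraries Slc7a1 was highest in library 2 and Slc38a4 in library 1, and Slc22a23 and Slc30a5 were highest in library 3. Cartilage markers moved the other way. In edgeR's adjusted test 6 of 8 tested were called as higher in distal libraries, where 1.11% of all tested genes were. The other tested ones, Acan and Hapln1, had log2 fold changes of 1.92 and 0.38 without a call. The cartilage markers summed to 1182 to 2322 CPM in distal and 332 to 642 CPM in proximal libraries. Their part in the values of Slc14a2, Slc2a3 and Slc27a1 was not tested either.

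Genes that work with these carriers, and transporters outside the SLC symbol rule, gave 1 call among 26 tested, Mfsd2a, where 3.39% of all tested genes were called. Their median log2 fold change was -0.09, against 0.01 over all tested genes. Mfsd2a, a lysophospholipid transporter known from brain endothelium, had 23.1, 10.0 and 18.2 CPM in distal libraries 1 to 3, against 3.32, 3.28 and 3.92 CPM in proximal libraries 1 to 3. The regions did not overlap and the log2 fold change was 2.26 (SE 0.40, 95% interval 1.38 to 3.14), with an edgeR adjusted p of 0.0104, lost without distal library 1 or proximal library 2 (0.0638 at most). Endothelial markers summed to 3.43 to 10.5 CPM in distal and 4.64 to 12.6 CPM in proximal libraries, and their part in the Mfsd2a value was not tested. Bsg, the chaperone of the lactate transporters, and the pyruvate carrier subunits Mpc1 and Mpc2 had log2 fold changes of 0.18 (SE 0.14), 0.11 (SE 0.24) and 0.10 (SE 0.15).

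Of 14 tested genes of the amino acid response, which sets Slc38a2 and Slc7a5 levels when amino acids run short, none was called by edgeR's adjusted test. The regions did not overlap in Asns and Atf5, where 16.2% of all tested genes did not. Asns was higher in distal libraries, at 0.47 (SE 0.19, 95% interval 0.06 to 0.88). Atf5 was higher in proximal ones, at -0.45 (SE 0.22, 95% interval -0.94 to 0.04). The regulator Atf4 had 242, 181 and 143 CPM in distal libraries and 253, 166 and 156 CPM in the proximal ones, and the log2 fold change was -0.01 (SE 0.23, 95% interval -0.53 to 0.50). Of 11 tested genes for sulfation and glycosaminoglycan precursors, 1 was called, Papss2, where 3.39% of all tested genes were. The list's median log2 fold change was 0.17. Papss2 makes the sulfate donor PAPS and is mutated in human and mouse skeletal dysplasia. Papss2 had 33.9, 31.3 and 28.2 CPM in distal libraries 1 to 3, against 15.3, 5.47 and 13.9 CPM in proximal libraries 1 to 3, without overlap, and the log2 fold change was 1.42 (SE 0.33, 95% interval 0.69 to 2.16), with an edgeR adjusted p of 0.0451. That call was lost without distal library 1 or 2 or proximal library 2 or 3 (0.168 at most). None of 11 tested Slc35 genes with lettered subfamilies was called, and the PAPS transporter Slc35b2 of the Golgi had 117 to 129.5 CPM in the distal libraries and 108 to 138 CPM in the proximal ones, and the log2 fold change was -0.04 (SE 0.15, 95% interval -0.38 to 0.31).

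Members were spread over 20 chromosomes in the GENCODE annotation of GRCm38, from 2 on chromosome 14 to 13 on chromosome 2. Neighbours within 500 kb formed 13 pairs. The closest were Slc14a2 and Slc14a1, then Slc38a1 and Slc38a2, with 44479 bases between them. In all, 5 members carry an overlapping gene within 300 bases of the 3' end, where MARS-seq reads fall. In Slc24a5, Slc25a26, Slc48a1 and Slc6a9 the overlapping gene is on the opposite strand and in Slc39a7 on the same strand. Whether the counting used strand is not given in the sources used here, so those members' counts may include reads of the neighbour.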

How the data were processed

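Bulk MARS-seq libraries were analysed from the deposited raw counts per gene. The build mm10 and the tools DESeq2, HTSeq, TopHat2, cutadapt 1.8.3 and bcl2fastq 2.17.1.14 are listed without roles in the submitters' processing notes. Not given in the sources used here are the annotation, the strand option and whether molecular identifiers were collapsed. The authors also deposited normalized counts, a signal equal to the counts over 1 size factor a library (checked to a relative tolerance of 1e-06) and not used further. Every deposited gene had at least 6 counts in all. The test was that of edgeR 4.0.16, run in R 4.3.3 (TMM, filterByExpr by region with a minimum count of 10 and total of 15, robust quasi-likelihood F test, region as the only term), on 9512 of 13158 genes, with Benjamini-Hochberg adjustment over all of them and a threshold of 0.05. The procedure was tested on simulated counts drawn independently for each library, without the deviations shared between libraries that these data show. Fold changes are distal over proximal. The SE is the absolute log2 fold change divided by the root of the F statistic. Levels are CPM scaled by TMM. No 2 libraries held identical values.

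The members, transport classes and other gene lists were chosen with earlier results of these data known. Named members were those past the threshold, the 2 most abundant and the smallest p of each class, 10 members tied to skeletal or matrix biology, and those next to the count minimum. Members named beyond these were chosen after their values were seen. A few members are not reported here. Alternatives were library size alone, DESeq2's size factors, upper-quartile scaling, no filter, 10 CPM in 3 libraries, the DESeq2 1.42.0 Wald test, limma 3.58.1 voom, a replicate block, each library left out, proximal 1 and distal 3 both left out, Rn45s left out, a threshold of 0.01, and a member minimum of 120 counts. A term for libraries above 4% Rn45s was chosen after seeing the data. Positions come from GENCODE for GRCm38, the same build as mm10, and promoters from RefSeq GRCm38.p6.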

Additional observations from a re-analysis of the deposited data

How the results depend on the processing

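Over all genes, an adjusted p of 0.01 left 42 genes called as distal-high and 101 as proximal-high, against 106 and 216 at 0.05, and no member in distal libraries. The count of members higher in distal libraries was also 0 with a minimum of 120 counts or a filter of 10 CPM in 3 libraries, both of which take out Slc14a2. The count of members higher in proximal libraries was 1 with no filter and with the DESeq2 Wald test.

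Leaving out 1 library gave 42 to 116 genes higher in distal and 114 to 221 higher in proximal libraries, 0 to 1 members in either direction, 0 to 1 partner genes and 0 to 2 sulfation genes. Slc25a3 ran between -0.16 and 0.089, reversed without proximal library 1, and Slc3a2 between -0.39 and 0.044, reversed without proximal library 2. With proximal library 1 and distal library 3 both left out, 441 genes were called as distal-high and 421 as proximal-high. The members were then 3 (Slc14a2, Slc12a2 and Slc7a14) in distal and 1 in proximal libraries, the partner genes 3, the sulfation genes 2 and the lettered Slc35 genes 1. Slc16a6 reversed to 0.22 and Slc25a3 to 0.12 in that setting. The distal libraries left are both above 4% Rn45s and the proximal ones both below, so there region and Rn45s share cannot be told apart.

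The term for libraries above 4% Rn45s, which was chosen after seeing the data, gave 215 distal-high genes, with 2 members (Slc14a2 and Slc2a3). It gave 2 members higher in proximal libraries, Slc29a1 among them, and 2 partner genes. With the replicate number as a block, 184 genes were higher in distal libraries, 1 member in proximal libraries, 2 partner genes and 1 lettered Slc35 gene. The titles carry the same 3 numbers in both regions, and what these mark is not stated. The deviations of same-numbered libraries correlated at 0.35, -0.14 and 0.48, so the numbers were not taken as pairs. Of 607 log2 values over all alternatives, for named members and for the median of the members, 590 counted as unchanged. For a named member that means the same side of the threshold, with no sign change beyond the SE. For the median, which has no threshold, it means a shift below the members' median SE. Of the rest, 8 passed the threshold, 5 lost it and 4 reversed. With 1585631 to 2623788 counts a library, members under 50 CPM had a median SE of 0.31. Changes with a log2 value of 1 or more can be missed there, as can smaller ones. Outside the members, Acan had a log2 fold change of 1.92 at a mean of 14.6 CPM without a call (edgeR adjusted p 0.153).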
